A study of Drosophila melanogaster with 16 samples.

Results

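Tumours that carry activated Ras together with loss of cdc42 (RasV12cdc42-) were compared with tumours that carry the same activated Ras together with loss of baz (RasV12baz-). The 4 arrays of each genotype were taken by their labels, which gave 8 of the 16 arrays of the study. The tumours grew out of clones made in the eye-antennal discs of Drosophila melanogaster larvae, the epithelial primordia of the adult eye and antenna. They were dissected at day 10 and hybridised in a pair of dyes against wild-type reference RNA of discs of day 5 to 6, all from larvae kept at 25 °C, with RNA pooled from about 30 to 40 discs. The study's other genotypes, RasV12scrib- and RafGOFscirb- (activated Ras, or gain-of-function Raf, with loss of scrib), entered the model only for the estimate of spread and dye effect and for context. The comparison asks how far tumours driven by the same oncogene differ when a different partner of the apical polarity machinery is lost.

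The product of baz, Bazooka or Par-3, is a scaffold of the apical Par complex, which holds Par-6 and the atypical protein kinase C at the apical side of epithelial cells and sets the position of the cell junctions. Cdc42 is a small GTPase that binds Par-6 and promotes the activity of that kinase, and it also acts on the actin cytoskeleton and on membrane traffic. In imaginal discs, loss of such polarity genes together with activated Ras is known to give overgrown, invasive tumours.

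Each array gave a log2 ratio of tumour and wild-type RNA for 11196 features. Positive values are taken to mean more RNA in the tumour than in wild-type discs. The sources used here do not state the direction, and it is called likely only from the channel order in the labels, where tumour RNA comes first. If it were the other way round, all signs below would turn and no size would change. Tumour RNA carried Cy3 on all 4 RasV12baz- arrays and on RasV12cdc42- replicates 3 and 4, and Cy5 on RasV12cdc42- replicates 1 and 2. Signal levels were not used here, so features near the background could not be recognised. The number of arrays limits the precision. By their labels the replicates are biological.

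A gene symbol could be given to 71 features, several symbols to 1 and none to 11124, which appear under their FlyBase-style identifier. The engineered genes (Ras85D, baz, Cdc42) were not matched to a feature by name, so the genotypes could not be checked on them. No eye-antennal disc marker was matched either. Of the markers of other tissues, Lsp2 (fat body), Eig71Ee (salivary gland) and Mst98Ca and betaTub85D (testis) were matched. Clones, neighbouring tissue and any attached cells entered the RNA together, and fewer cells of a type cannot be told apart from less RNA per cell.

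The arrays did not fall cleanly into the genotypes, which bears on every result below. RasV12cdc42- replicates 1 and 2 correlated with each other at r = 0.80 across features and replicates 3 and 4 at r = 0.81, whereas r across these pairs was 0.20 to 0.44. Among the RasV12baz- arrays, replicates 1, 2 and 3 correlated at 0.51 to 0.66. RasV12baz- replicate 4 stood apart. It correlated at 0.28 to 0.44 with the other arrays of its own genotype but at 0.65 with RasV12cdc42- replicate 3 and 0.71 with RasV12cdc42- replicate 4, its closest array. Its values lay nearer to the RasV12cdc42- mean than to the mean of RasV12baz- replicates 1 to 3 for 67.3% of the features. The median r was 0.48 within RasV12baz- (6 pairs), 0.41 within RasV12cdc42- (6 pairs) and 0.36 between the genotypes (16 pairs). Without replicate 4 the median within RasV12baz- was 0.65 (3 pairs), and r between the genotypes did not exceed 0.40 (12 pairs). Features are not independent replicates, so these correlations are descriptions. No pair of the 8 arrays held the same value for more than 0.0982% of the features.

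**Figure D1:**
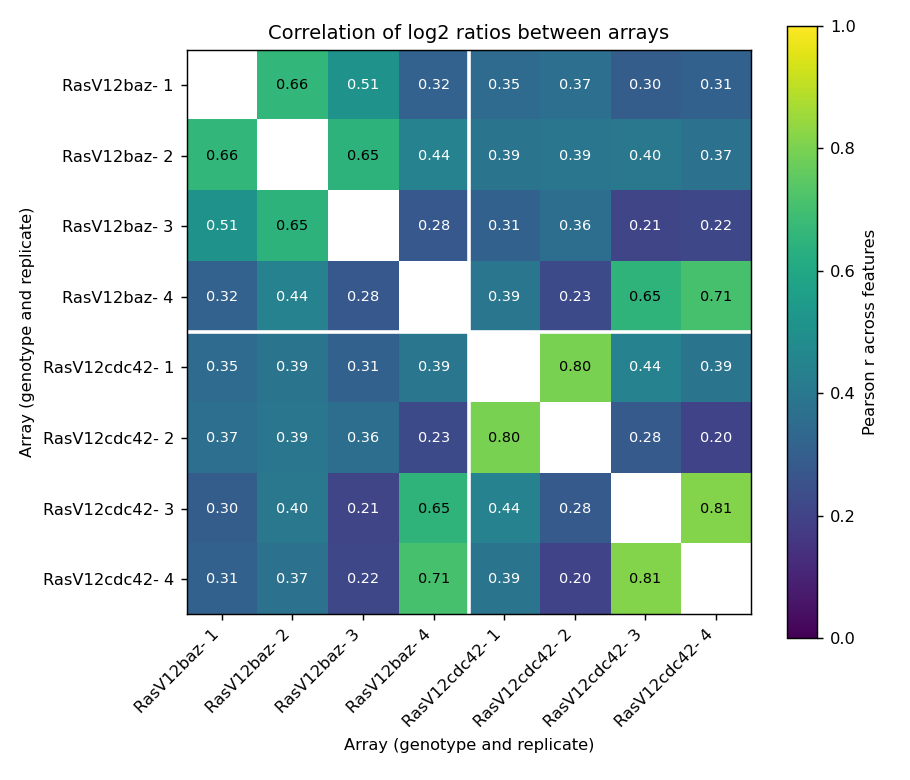
Pearson correlation across 11196 features between each pair of the 8 arrays, coloured from 0 to 1; white lines part the RasV12baz- from the RasV12cdc42- arrays, and the number is the replicate. RasV12baz- replicate 4 shares its highest values, 0.65 and 0.71, with RasV12cdc42- replicates 3 and 4.

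Differences between replicates of one genotype were partly shared with the other. The difference between RasV12baz- replicate 4 and the mean of replicates 1 to 3 correlated across features with the difference between RasV12cdc42- replicates 3-4 and 1-2 (Pearson r = 0.38, Spearman rho = 0.40). These differences share no tumour array. Their sign was the same for 57.0% of all features and for 43 of the 71 genes with a symbol. The difference between RasV12scrib- replicates 3-4 and 1-2 correlated with that of RasV12cdc42- at r = 0.34 and with that of RasV12baz- replicate 4 at r = 0.17. In this order, the sign was the same for 59.8% and 59.0% of all features, so the sharing was not particular to RasV12baz- and RasV12cdc42-. Lsp2, a larval serum protein that the fat body makes and secretes, differed by -4.21 on the log2 scale between RasV12baz- replicate 4 and the others, and by -1.42 between the RasV12cdc42- pairs. Eig71Ee, an ecdysone-induced gene of the late larval salivary gland, differed by -1.57 and -0.65 in the same order. The -0.65 rested on RasV12cdc42- replicate 1, at 1.29, with -0.75, -0.55 and -0.23 on replicates 2 to 4. For the testis markers the signs were unlike, with -0.40 and 0.08 for Mst98Ca and -0.42 and 1.07 for betaTub85D. The pairs of RasV12cdc42- arrays also differed in dye, while all RasV12baz- arrays carried tumour RNA in Cy3. The part of dye, or of RNA from these other tissues, in these differences was not tested.

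**Figure D2:**
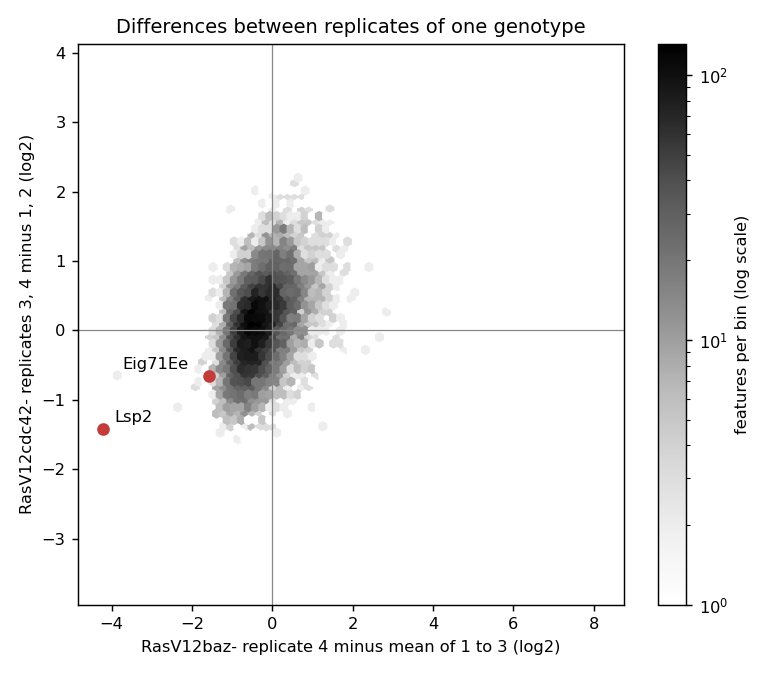
Each hexagon counts features by the log2 difference between RasV12baz- replicate 4 and the mean of replicates 1 to 3 (horizontal) and between RasV12cdc42- replicates 3-4 and 1-2 (vertical), with darker shades for more features on a log scale. The cloud leans upward to the right (r = 0.38), and Lsp2 lies far to the lower left at -4.21 and -1.42.

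Between RasV12cdc42- and RasV12baz- tumours 4 of the 11196 features differed (0.0357%), 2 of them higher (0.0179%) and 2 lower (0.0179%) in RasV12cdc42- (limma with a term for dye, Benjamini-Hochberg adjusted p under 0.05, n = 4 each). None of these 4 has a symbol here. An unadjusted p under 0.05 was reached by 632 features (5.64%), of which 281 (2.51%) were higher and 351 (3.14%) lower in RasV12cdc42-. The 4 RasV12cdc42- and 4 RasV12baz- arrays did not overlap for 487 features (4.35%), and 251 features (2.24%) met both conditions. The split of 2 higher and 2 lower was 4 and 10 without the dye term, 14 and 32 after quantile normalization, and 5 and 11 where every array was scaled to the same spread. Without RasV12baz- replicate 4 the count past the adjusted threshold was 37 (0.33%).

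FBgn0001254 had the largest difference of the 4. Its log2 ratio was -4.48, -5.96, -6.09 and -4.10 on RasV12baz- replicates 1 to 4. On RasV12cdc42- replicates 1 to 4 it was -2.14, -2.25, -2.25 and -1.87. It was thus far below wild-type in both genotypes, but all RasV12cdc42- arrays lay above all RasV12baz- arrays, and the RasV12cdc42- values spanned only 0.38.

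The fitted difference of FBgn0001254 was 3.11 ± 0.42 on the log2 scale (SE), or 8.61-fold (limma, adjusted p = 0.00607). Without RasV12baz- replicate 4 it was 3.46 ± 0.39 (limma, adjusted p = 0.000695). The feature was also far below wild-type in the other genotypes, from -6.09 to -5.57 on the RasV12scrib- arrays and from -4.70 to -3.61 on the RafGOFscirb- arrays. RasV12cdc42- was also higher than RasV12scrib- (difference 3.65, limma, adjusted p = 1.02e-05) and RafGOFscirb- (2.22, limma, adjusted p = 0.0222). These comparisons share the RasV12cdc42- arrays on which the feature was chosen, so their p-values are not separate support. Each of the 4 RasV12cdc42- arrays exceeded each array of the other 3 genotypes.

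FBgn0038478 was raised in RasV12cdc42- tumours, with log2 ratios of 1.32, 3.91, 2.81 and 2.58 on replicates 1 to 4. On the RasV12baz- arrays it stayed near the wild-type level, at 0.08, -0.03, -0.24 and -0.21. The RasV12cdc42- arrays varied more among themselves (SD 1.06) than the RasV12baz- arrays (SD 0.15), and the spread was within the pair of Cy5 arrays rather than between the pairs. On RasV12cdc42- replicates 2 to 4 the values are the log2 of whole numbers. Whole-number ratios up to 9 made up 0.82% to 1.10% of the features on the RasV12cdc42- arrays. The ratio on replicate 2 is larger than 9, so this share does not cover it. Whether the signal of FBgn0038478 lay near the background was not tested, as signal levels were not used.

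The fitted difference of FBgn0038478 was 2.71 ± 0.42, or 6.56-fold (limma, adjusted p = 0.0194), and 2.68 ± 0.46 without RasV12baz- replicate 4 (limma, adjusted p = 0.0227). The other genotypes also stayed close to 0, from -0.37 to 0.56. RasV12cdc42- was higher than RasV12scrib- by 2.73 (limma, adjusted p = 0.000201) and than RafGOFscirb- by 2.26 (limma, adjusted p = 0.0203). Both comparisons use the RasV12cdc42- arrays on which the feature was chosen, so their p-values are not separate support.

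FBgn0040340 was lower in RasV12cdc42- tumours. Its log2 ratio was 0.34, 0.28, -0.05 and 0.11 on RasV12baz- replicates 1 to 4, against -0.78, -0.99, -1.49 and -1.38 on the RasV12cdc42- arrays. The groups did not overlap, and RasV12baz- replicate 4 lay inside the range of its own genotype.

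The fitted difference of FBgn0040340 was -1.53 ± 0.25, or 2.89-fold lower (limma, adjusted p = 0.0195), and -1.55 ± 0.26 without RasV12baz- replicate 4 (limma, adjusted p = 0.0227). The feature was low in RasV12scrib- as well, from -1.001 to -0.404, and RasV12cdc42- was not shown to differ from RasV12scrib- (-0.40 ± 0.22, limma, adjusted p = 0.480). RafGOFscirb- lay near 0, from -0.13 to 0.25, and RasV12cdc42- was lower than it by a fitted difference of -1.37 (limma, adjusted p = 0.0166). RasV12baz- was higher than RasV12scrib- by 1.14 (limma, adjusted p = 0.0160). These comparisons use again the arrays on which the feature was chosen, so their p-values are not separate support.

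FBgn0034657 lay above wild-type on every RasV12baz- array and below it on every RasV12cdc42- array. It read 1.04, 1.02, 0.54 and 0.26 on RasV12baz- replicates 1 to 4 and -1.19, -0.03, -1.15 and -1.24 on the RasV12cdc42- arrays. The lowest RasV12baz- array was replicate 4, and RasV12cdc42- replicate 2 lay well above the other arrays of its genotype, so a gap of 0.29 was left between the groups.

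The fitted difference of FBgn0034657 was -1.89 ± 0.32, or 3.70-fold lower (limma, adjusted p = 0.0309), and -2.04 ± 0.33 without RasV12baz- replicate 4 (limma, adjusted p = 0.0221). The feature read from -2.50 to -1.44 on the RasV12scrib- arrays, and RasV12baz- exceeded them by 2.77 (limma, adjusted p = 9.32e-05). That comparison uses the RasV12baz- arrays on which the feature was chosen, so its p-value is not separate support. The difference between RasV12cdc42- and RasV12scrib- did not pass (0.88 ± 0.29, limma, adjusted p = 0.115). RafGOFscirb- read from -0.39 to 0.08, and neither RasV12cdc42- (-1.04, limma, adjusted p = 0.311) nor RasV12baz- (0.85, limma, adjusted p = 0.343) was shown to differ from it. All 4 calls depended on single arrays. Without RasV12cdc42- replicate 4 none of these 4 or any other feature passed (423 had an unadjusted p under 0.05), without RasV12cdc42- replicate 3, RasV12baz- replicate 1 or RasV12baz- replicate 2 only FBgn0001254 did, and without RasV12baz- replicate 3 the count was 15. With a random effect for each pair of replicates (1-2 or 3-4) within a genotype, no feature passed with all arrays (228 had an unadjusted p under 0.05), and 2 passed without RasV12baz- replicate 4.

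**Figure D3:**
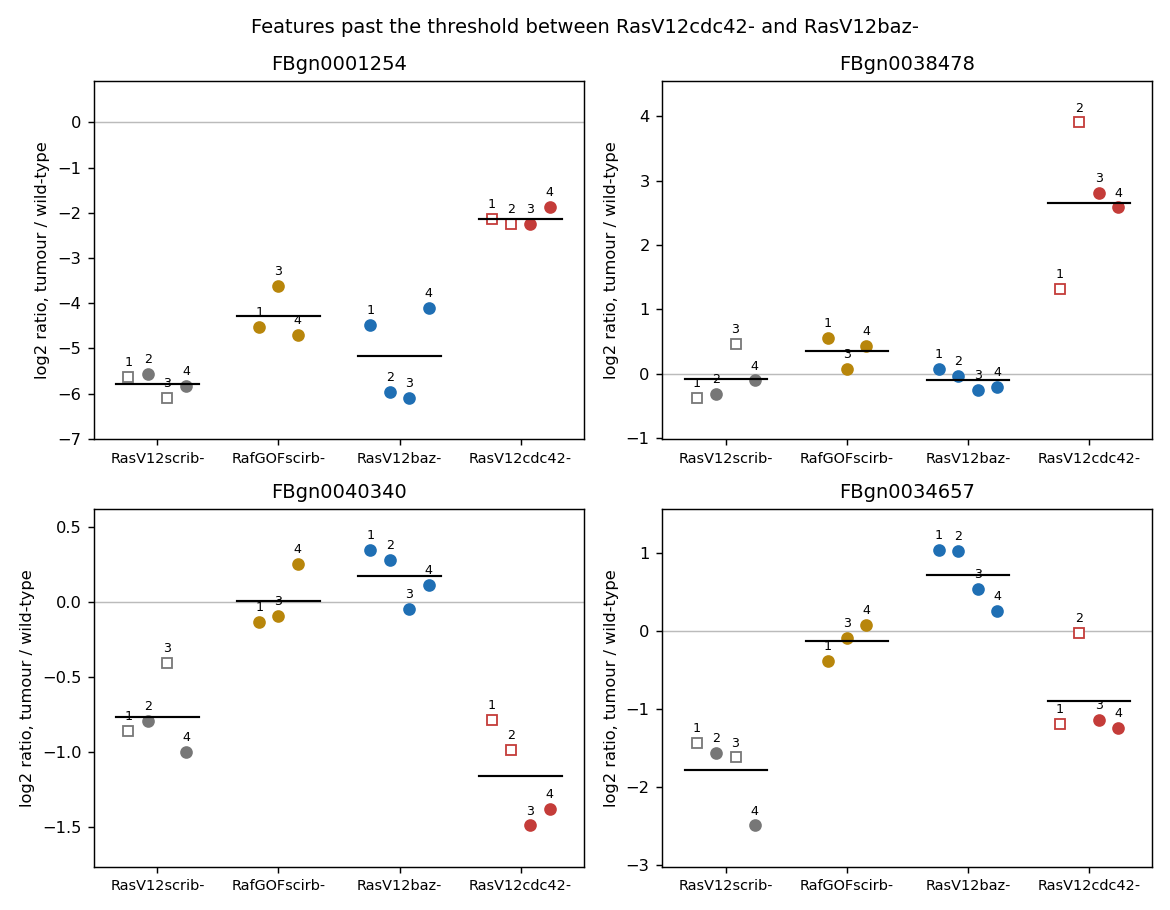
Log2 ratio of each replicate (numbered points) in the 4 genotypes for the 4 features that passed the threshold; bars are genotype means, and open squares mark arrays with tumour RNA in Cy5. FBgn0001254 is between -2.25 and -1.87 on the RasV12cdc42- arrays and at -3.61 or lower on all other arrays, and FBgn0038478 is above 1.3 on the RasV12cdc42- arrays alone.

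Leaving out RasV12baz- replicate 4 raised the count from 4 to 37 features, 23 higher (0.205%) and 14 lower (0.125%) in RasV12cdc42-, and the 4 above were among them with the same sign. The split was 53 and 20 after median centring, 369 and 312 after quantile normalization, and 15 and 26 without the dye term. That array was singled out by its likeness to RasV12cdc42- arrays, so its removal by itself widens the difference, and the count is a description. On 33 of the 37 features RasV12baz- replicate 4 lay beyond its own genotype's other arrays on the side of RasV12cdc42-. The choice of the 37 favours this, and the share over all features was not counted. On 27 of the 37 replicate 4 was nearer to the RasV12cdc42- mean, beside 67.3% of all features, so the 27 are not a trait of the 37. The absolute difference of the 37 ran from 1.34 to 4.32 with a median of 1.76. On 34 the remaining arrays of the genotypes did not overlap, as on 13.4% of all features. The 37 were chosen on these same arrays, so their lack of overlap is largely set by the choice. All 37 had an unadjusted p under 0.05 with replicate 4 in place, which the same choice also favours. None has a symbol. An unadjusted p under 0.05 was reached by 1184 features (10.6%) without that array, against 5.64% with it. The count of 37 also rested on single arrays, with 1 feature left without RasV12baz- replicate 2, RasV12cdc42- replicate 3 or RasV12cdc42- replicate 4.

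**Figure D4:**
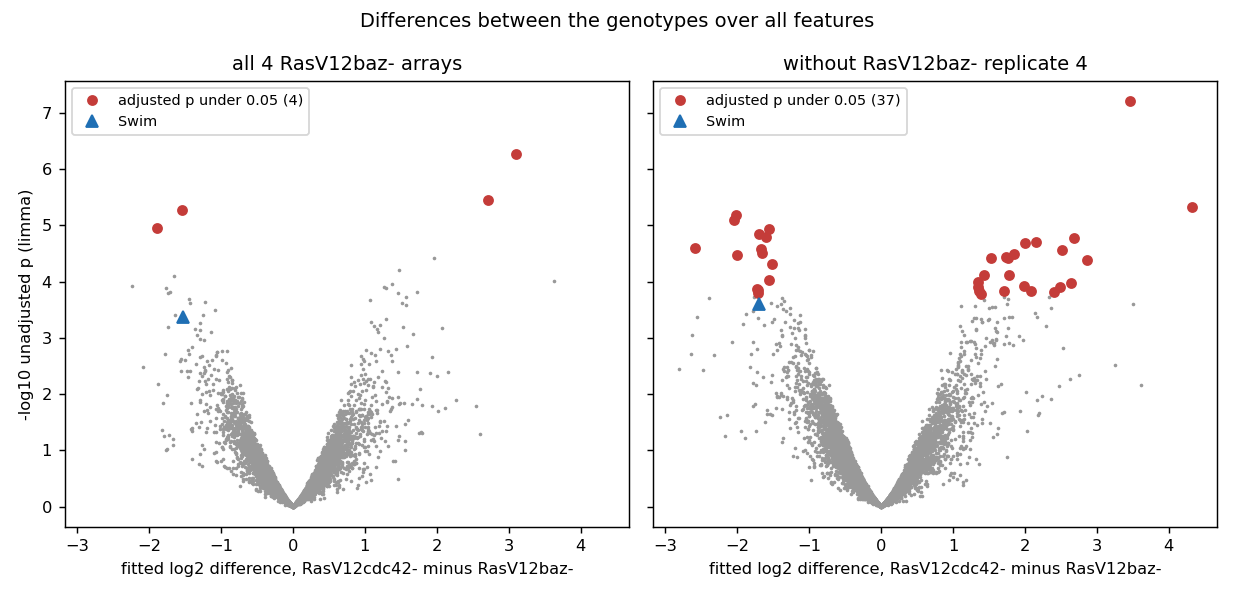
Fitted log2 difference between RasV12cdc42- and RasV12baz- (horizontal) against -log10 of the unadjusted limma p (vertical) for each feature, with all arrays on the left and without RasV12baz- replicate 4 on the right. Red points passed the adjusted threshold, 4 on the left and 37 on the right, and the triangle is Swim, which passed in neither.

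The sizes of the differences and their errors were set beside those of the comparisons with RasV12scrib-. The SD of the fitted differences over all features was 0.39 for RasV12cdc42- against RasV12baz-, 0.53 for RasV12baz- against RasV12scrib- and 0.46 for RasV12cdc42- against RasV12scrib-, while the median SE was 0.32, 0.32 and 0.28 in the same order. A fitted difference of at least 2-fold was found for 275, 716 and 511 features. In the comparisons with RasV12scrib- 338 (3.02%) and 393 features (3.51%) passed the threshold. These comparisons share arrays, and whether their counts differ beyond chance was not tested. Without RasV12baz- replicate 4 the SD of the differences was 0.48, with a median SE of 0.32 and 491 features of at least 2-fold, close to the 0.46 and 511 of RasV12cdc42- against RasV12scrib-, yet 37 features passed against 393. The unadjusted 95% interval of the difference lay within 2-fold in either direction for 7431 features (66.4%) and within 4-fold for 10934 (97.7%). Within 1.5-fold it lay for 225 features, so smaller differences could not be bounded by this number of arrays.

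The genotypes were also compared by 1 value per array. The number of features with a log2 ratio under -2 was 20, 34, 44 and 40 on RasV12baz- replicates 1 to 4, and 21, 32, 17 and 11 on the RasV12cdc42- arrays. The means were 34.5 and 20.3 features, and the ranges overlapped (two-sided exact permutation test, p = 0.0857, adjusted p = 0.343 over 4 such measures, n = 4 each, smallest possible p = 0.0286). The number above 2 (mean 131 in RasV12baz- and 84.5 in RasV12cdc42-, exact permutation p = 0.343), the array median (0.21 and 0.12, exact permutation p = 0.514) and the SD over features (0.56 and 0.56, exact permutation p = 0.971) were not shown to differ either. Without RasV12baz- replicate 4 the RasV12baz- means were 32.7 features under -2, 129 above 2, a median of 0.30 and an SD of 0.53, with exact permutation p = 0.171, 0.457, 0.257 and 0.714 in the same order. The lowest ratio was -3, -5.29, -3 and -3.17 on RasV12cdc42- replicates 1 to 4. On each RasV12baz- array the lowest ratio was that of FBgn0001254 itself, from -6.09 to -4.10. After quantile normalization the fitted difference of FBgn0001254 was 1.83. The part of the unlike low ends of the arrays in its difference was not tested.

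Of the 71 genes with a symbol none passed the adjusted threshold, and the lowest adjusted p was 0.170. The fitted difference was above 0 for 33 and below 0 for 38, with a median of -0.02, the same as over all features (-0.02), and a range from -1.76 to 0.76. An unadjusted p under 0.05 was reached by 5 of them, beside 5.64% of all features, and all 5 were lower in RasV12cdc42- (3.14% of all features). They are Swim, CG12520, CG12091, Ts and Ant2. Swim met the rule for naming genes, and the other 4 are named because the count is small, after their values were seen. The 95% interval lay within 2-fold in either direction for 51 of the 71.

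Swim encodes a secreted protein known to bind the growth factor Wingless and help it spread. Its log2 ratio was 3.19, 3.06, 1.52 and 1.93 on RasV12baz- replicates 1 to 4 and 0.47, 0.83, 1.02 and 0.67 on the RasV12cdc42- arrays. It was above wild-type on all 8 arrays, and it was the only gene with a symbol whose arrays did not overlap between the genotypes (1 of 71, or 1.41%, against 4.35% of all features).

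The fitted difference of Swim was -1.53 ± 0.36 (limma, unadjusted p = 0.000425, adjusted p = 0.170), with a 95% interval from -2.28 to -0.78. It did not pass the threshold, nor did it without RasV12baz- replicate 4 (-1.69 ± 0.37, limma, adjusted p = 0.0571). In a fit without the dye term it did (-1.67, limma, adjusted p = 0.0417).

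CG12520, a gene given no role here, read 1.57, 1.66, 0.83 and 2.32 on the RasV12baz- arrays and 0.29, 0.87, 0.06 and 0.12 on the RasV12cdc42- arrays. The highest RasV12cdc42- array, replicate 2, overlapped the lowest RasV12baz- array, replicate 3. Here RasV12baz- replicate 4 was the array farthest from RasV12cdc42-, opposite to its place over most features. The fitted difference was -1.23 ± 0.37 (limma, adjusted p = 0.420), and -0.99 ± 0.36 without that array (limma, adjusted p = 0.303).

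Ts encodes thymidylate synthase, which makes the thymidine nucleotide for DNA synthesis. It read 1.12, 1.40, 0.67 and 0.25 on the RasV12baz- arrays and 0.36, 0.05, 0.05 and 0.07 on the RasV12cdc42- arrays. RasV12baz- replicate 4 fell among the RasV12cdc42- arrays, and the other 3 lay above them all. The fitted difference was -0.73 ± 0.30 (limma, adjusted p = 0.779), and -0.93 ± 0.29 without replicate 4 (limma, adjusted p = 0.212).

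Ant2 encodes a mitochondrial adenine nucleotide translocase. It read 0.35, 0.54, 0.18 and -0.38 on the RasV12baz- arrays and -0.33, -0.10, -0.79 and -0.46 on the RasV12cdc42- arrays, again with RasV12baz- replicate 4 among the latter. Its fitted difference was -0.74 ± 0.32 (limma, adjusted p = 0.823). CG12091 read 0.76, 0.79, 0.31 and 0.34 against -0.23, 0.61, -0.49 and -0.08, and its fitted difference was -0.80 ± 0.27 (limma, adjusted p = 0.578). For CG12091 the overlap came from RasV12cdc42- replicate 2 alone.

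**Figure D5:**
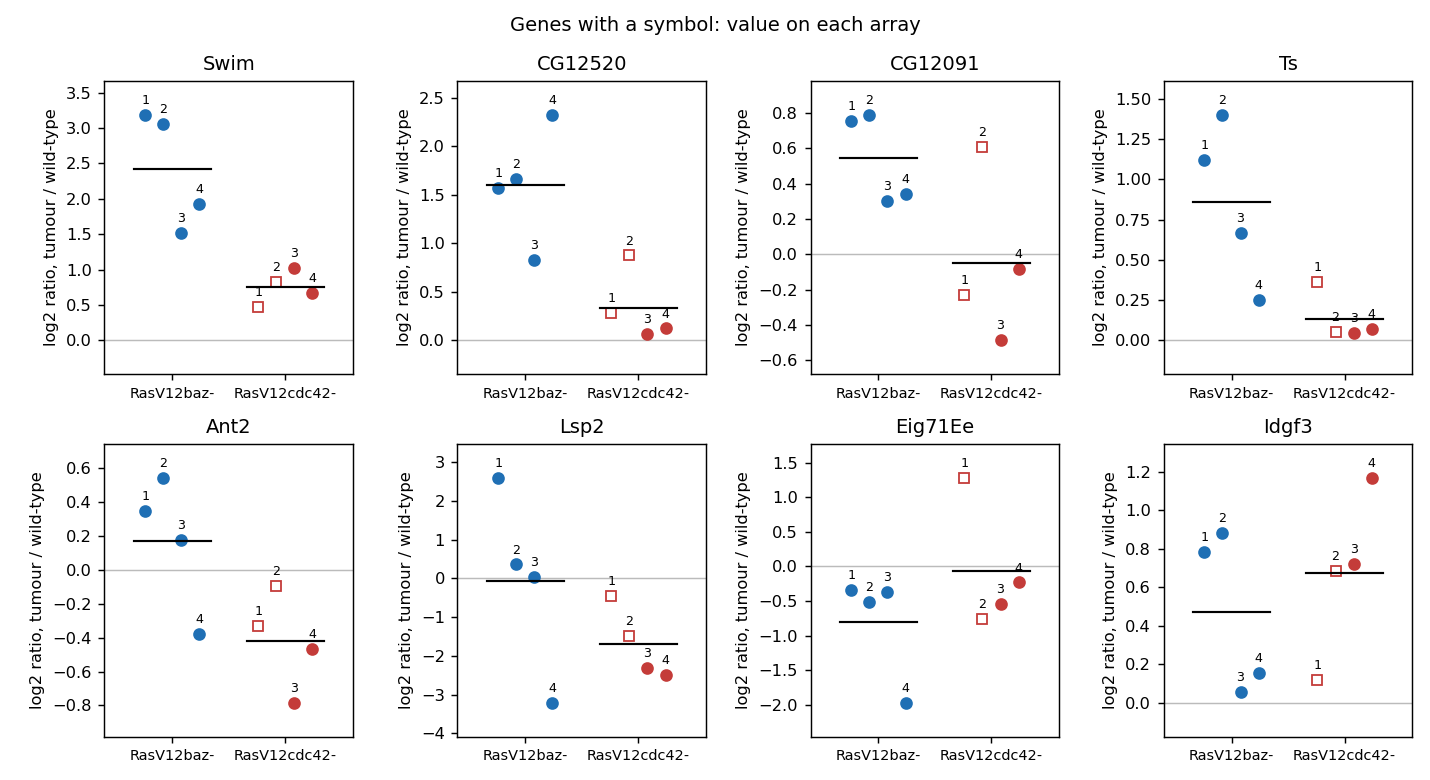
Log2 ratio on each array (numbered points) for 8 genes with a symbol in RasV12baz- and RasV12cdc42-; bars are means over 4 arrays, and open squares mark arrays with tumour RNA in Cy5. The genotypes do not overlap for Swim, and RasV12baz- replicate 4 stands away from its genotype for Lsp2 (-3.22) and Eig71Ee (-1.98).

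Lsp2 had the largest fitted difference of the 71 genes, yet its values varied widely within RasV12baz-. They were 2.60, 0.36, 0.03 and -3.22 on replicates 1 to 4, against -0.46, -1.49, -2.31 and -2.49 on the RasV12cdc42- arrays. RasV12baz- replicates 1 to 3 lay above all RasV12cdc42- arrays and replicate 4 below them all. The fitted difference was -1.76 ± 1.01 (limma, adjusted p = 0.958). Without replicate 4 it was -2.81 ± 0.84 (limma, unadjusted p = 0.00362, adjusted p = 0.192), so leaving out this array moved the size by over 1.5 times without a call. Lsp2 was the only one of 10 fat body markers matched, so a marker level for that tissue could not be set beside the other genes.

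Eig71Ee, the single match both among 18 ecdysone-response genes and among 7 salivary gland genes, read -0.34, -0.51, -0.37 and -1.98 on the RasV12baz- arrays and 1.29, -0.75, -0.55 and -0.23 on the RasV12cdc42- arrays. The groups overlapped, with the extremes set by RasV12baz- replicate 4 and RasV12cdc42- replicate 1. The fitted difference was 0.76 ± 0.52 (limma, adjusted p = 0.9997), and 0.37 ± 0.50 without RasV12baz- replicate 4.

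Of 35 gene lists, 8 had a matched gene and none had 3 or more, so no list is summarised. Among the imaginal disc growth factors and related secreted proteins (2 of 8 matched, none called), Swim is described above. Idgf3, a chitinase-like growth factor, had means of 0.47 ± 0.42 in RasV12baz- and 0.67 ± 0.43 in RasV12cdc42- (SD, n = 4 each). Its log2 ratio was above 0 on all 8 arrays, but only 0.06 and 0.16 on RasV12baz- replicates 3 and 4 and 0.12 on RasV12cdc42- replicate 1. Its fitted difference was 0.35, with a 95% interval from -0.29 to 0.99. LanA, the laminin alpha chain of basement membranes and the only match of 14 matrix and integrin genes, had means of 0.20 ± 0.29 and 0.13 ± 0.11. The interval of its difference ran from -0.64 to 0.74, which leaves out a 2-fold change. Treh, which splits the blood sugar trehalose, was the only match of 13 sugar-breakdown genes, with a difference of -0.21 and an interval from -1.07 to 0.66. The testis markers Mst98Ca and betaTub85D (2 of 9 matched, none called) differed by 0.06 and -0.02, with intervals from -0.67 to 0.79 and from -0.72 to 0.68. The sign of the difference of Treh, LanA and these testis genes turned under some settings, given with the other settings after the report.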

How the data were processed

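The deposited values are log2 ratios, with a row per feature and a column per array. How the authors scanned, corrected and normalized the arrays was not given in the sources used here. Columns are not centred (medians from -0.05 to 0.48 over the 8 arrays) and were used with the zero as deposited. Signs were kept as deposited: all pairs of the 8 arrays correlated above 0 (r from 0.203 to 0.814), whichever dye the tumour had.

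Features were named only where their identifier equalled a symbol or synonym in an NCBI gene table of Release 6. RafGOFscirb- replicates 1 and 2, which are near-identical, were averaged, leaving 15 replicates. Every feature was fitted with genotype means and a term for dye (R 4.3.3, limma 3.58.1, empirical Bayes), and RasV12cdc42- minus RasV12baz- was tested, two-sided. P-values were adjusted by Benjamini-Hochberg over 11196 features at a threshold of 0.05. As RasV12baz- had no swapped array, fitted differences hold a dye correction estimated on RasV12scrib- and RasV12cdc42- arrays. They can therefore differ from differences of means. In RasV12cdc42- the swapped arrays are replicates 1 and 2, which are also alike, so that there dye and replicate pair cannot be told apart. The fit was tested on simulated data.

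Named are features past the threshold, genes with a symbol, an unadjusted p under 0.05 and no overlap of arrays (up to 10 per direction), those past the threshold without RasV12baz- replicate 4 (up to 5 per direction), and up to 3 matched genes per list. Of features without a symbol at most 2 per direction are given. The comparison, its lists and the array left out were chosen with earlier results of these data known. Figures used Python 3.11.15 with matplotlib 3.10.9. The other settings tried were the dye term, the arrays fitted, centring, quantile normalization, equal spread, array weights, robust moderation, a filter (absolute log2 ratio of at least 0.5 on at least 3 arrays), the near-identical pair kept apart, blocks and left-out replicates. Same-numbered arrays of the genotypes did not all deviate together from their genotype means (r = 0.10, 0.16, -0.22 and 0.36), so the numbers were not taken as pairs.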

Additional observations from a re-analysis of the deposited data

Results flagged for a closer look

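The 4 features past the threshold moved differently against wild-type in the genotypes by the test of the difference itself. On the log2 scale RasV12cdc42- minus RasV12baz- was 3.11 for FBgn0001254, 2.71 for FBgn0038478, -1.53 for FBgn0040340 and -1.89 for FBgn0034657. A single array far from the other 3 of its genotype was found in 3 of 40 groups of 4 values checked, and about 1 in 20 such groups is reached by chance. FBgn0034657 was at -0.0289 on RasV12cdc42- replicate 2, which was 1.12 from the nearest other array. Ts was at 0.36 on RasV12cdc42- replicate 1, which was 0.29 from the nearest. Eig71Ee was at -1.98 on RasV12baz- replicate 4, which was 1.46 from the nearest.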

How the results depend on the processing

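The count of 4 features between RasV12cdc42- and RasV12baz- became 14 without the dye term, 46 with quantile normalization and 16 with equal spread on all arrays. It became 3 with only the 8 arrays of both genotypes and no dye term. On arrays carrying the tumour in Cy3 it was 2, and without both RasV12baz- replicate 4 and the dye term it was 41. Array weights, whose estimate did not converge, gave 2558. The random blocks of replicates 1-2 and 3-4 gave 0 (limma, 228 with an unadjusted p under 0.05). With the replicate number as a replicate block the count was also 0 (limma, 703 with an unadjusted p under 0.05). Leaving out 1 replicate gave 0 to 37. The count of 37 without RasV12baz- replicate 4 became 182 with only the arrays of both genotypes and no dye term, 82 on the Cy3 arrays, 73 with centring, 681 with quantile normalization, 234 with equal spread, 6494 with array weights and 2 with the random blocks, and 1 to 116 when 1 more replicate was left out. The replicate block gave 33 there. RasV12baz- against RasV12scrib- (338) became 640 without the dye term, 165 on the Cy3 arrays, 162 with quantile normalization, 60 with equal spread, 1271 with array weights, 204 with the replicate block, 27 with the random blocks and 128 to 649 with 1 replicate left out. RasV12cdc42- against RasV12scrib- (393) became 129, 122, 591 and 52 on the Cy3 arrays, with equal spread, with array weights and with the random blocks, and 227 to 451 with 1 replicate left out. The cause of these changes was not tested. The settings of the count without replicate 4 other than the dye term, and those of the comparisons with RasV12scrib-, were chosen after the data had been seen.

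Over 28 settings the call was lost in 5 for FBgn0001254 (difference 1.83 to 4.09), 6 for FBgn0038478 (2.47 to 3.09), 8 for FBgn0040340 (-1.99 to -1.33) and 11 for FBgn0034657 (-2.44 to -1.62), and no difference changed sign. Swim passed the threshold in 5 (-1.91 to -1.27). The sign turned for genes close to 0. Treh was at 0.0387 with the replicate block, and from -0.437 to 0.0459 with 1 replicate left out. Mst98Ca was at -0.13 without the dye term, also on the 8 arrays alone, at -0.0905 on the Cy3 arrays, at -0.25 with array weights, at -0.23 without RasV12baz- replicate 4 and the dye term, and from -0.124 to 0.251 with 1 replicate left out. LanA was at -0.0746 without the dye term, also on the 8 arrays alone, at -0.0964 without RasV12baz- replicate 4 and the dye term, and from -0.0388 to 0.187 with 1 replicate left out. For betaTub85D it was 0.23 on the Cy3 arrays, 0.0104 with centring, 0.13 with quantile normalization, 0.11 with equal spread, 0.0036 with array weights and -0.249 to 0.151 with 1 replicate left out.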
